A study of Mus musculus with 8 samples.

Results

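The genes described are the enzymes that hydroxylate and cross-link collagen in the mouse: the prolyl 4-hydroxylase alpha subunits P4ha1, P4ha2 and P4ha3, the lysyl hydroxylases Plod1, Plod2 and Plod3, and the lysyl oxidases Lox, Loxl1 and Loxl2. Members were found by symbol among the array's probe sets, groups of short probes that read 1 transcript. Only probe sets with a single gene symbol were used, and for each gene the probe set with the highest mean over all arrays stands for the gene. Of the 9 listed genes, 8 were measured, out of 17097 genes on the array. P4ha1 is not among the probe sets with a single symbol and was not analysed here. The list was proposed, and so chosen by the log2 signals of these same arrays, with results of the 3 comparisons known, so the counts below describe these 8 genes and are not an independent test of the family.

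The arrays read basal keratinocytes of the back skin between the hair follicles, from untreated CD1 mice (control, 3 arrays), from mice on day 4 of expansion of the skin by mechanical force (expanded, 3 arrays), and from mice treated with 12-O-Tetradecanoylphorbol-13-acetate (TPA, 2 arrays), a phorbol ester used to drive epidermal growth. Each array holds 300 cells of 1 mouse, sorted live as positive for ITGA6 and negative for CD34. The dose, the time after TPA and the age of the mice are not given in the sources used here. All values are log2 signals, in which a difference of 1 is a 2-fold change, and each error is a standard deviation (SD) of a level or a standard error (SE) of a difference.

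Collagen chains are modified in the endoplasmic reticulum before they are secreted. Prolyl 4-hydroxylases, made of an alpha subunit and protein disulfide isomerase, hydroxylate prolines and so stabilise the triple helix, while lysyl hydroxylases hydroxylate lysines that later carry sugars or cross-links. Lysyl oxidases act outside the cell, where they oxidise lysines of collagen and elastin so that fibres become cross-linked. Both hydroxylase families need oxygen, iron and 2-oxoglutarate, and several of these genes are known targets of hypoxia-inducible factors. In skin most fibrillar collagen comes from dermal fibroblasts, and basal keratinocytes add collagens of the basement membrane.

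The arrays were evenly scaled, with medians over genes from 7.08 to 7.14. No detection calls were used, so a background limit was set on each array from 79 genes for receptors of smell, pheromones and trace amines, as their 95th percentile. It lay between 6.37 and 6.55, and 32.9% of genes were under it on every array. All 6 basal keratinocyte markers, Krt5, Krt14 and Itga6 among them, were above the limit on all 8 arrays. Of 5 hair follicle bulge markers, Cd34, Lgr5 and Lhx2 were under it on all 8, while Sox9 and Nfatc1 were above it on all 8. Krt6a, Krt16 and Odc1, known as genes that TPA induces in epidermis, were lowest on the arrays labelled TPA. Their means in the control, expanded and TPA arrays were 13.23, 13.14 and 12.54 for Krt6a, 13.04, 12.90 and 12.15 for Krt16, and 11.34, 9.84 and 8.99 for Odc1. All directions below follow the labels as deposited. If the control and TPA labels were exchanged, every difference between TPA and control would change its sign, so that the 5 members given below as lower after TPA would be higher. The values given as expanded minus TPA would then stand for expanded minus control, with P4ha3 higher as the 1 member called.

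Of the 8 measured members, P4ha2, P4ha3, Plod1, Plod2, Plod3 and Loxl1 were above the background limit on all 8 arrays. Lox and Loxl2 were under it on all 8. The mean signal was highest in control and lowest in TPA for P4ha2, Plod1, Plod2, Plod3, Lox and Loxl2, that is 6 of 8 genes. P4ha3 was highest in expanded skin instead, and the 3 group means of Loxl1 lay within 0.02 of each other.

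**Figure D1:**
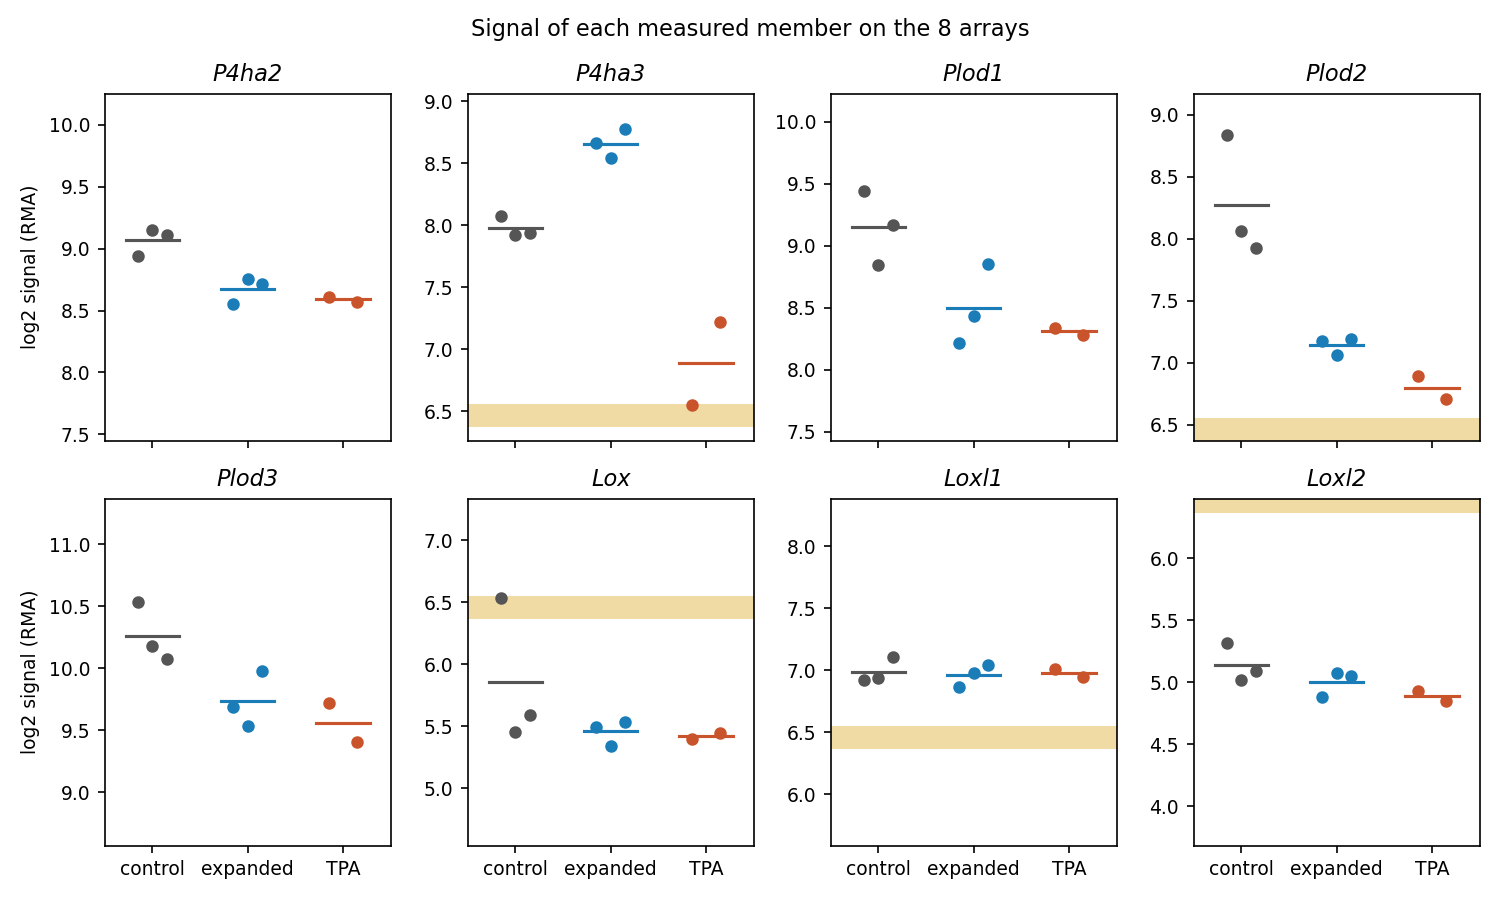
The log2 signal (y axis) of each of the 8 measured members is plotted by group (x axis), with 1 point per array, a line at the group mean and, where the axis reaches it, a band over the range of the arrays' background limits. P4ha2, Plod2 and Plod3 separate the control arrays from all others, P4ha3 is highest in expanded skin and lowest after TPA, and Lox and Loxl2 sit under the limit on all 8 arrays.

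P4ha2 and P4ha3, which encode alternative catalytic alpha subunits of prolyl 4-hydroxylase, went different ways in expanded skin. P4ha2 read 8.94, 9.15 and 9.11 in the control arrays, 8.55, 8.76 and 8.71 in the expanded arrays, and 8.61 and 8.57 in the TPA arrays. Every control array was above every expanded and every TPA array, while the expanded and TPA arrays overlapped. The mean fell from 9.07 ± 0.11 (SD, n = 3) in control to 8.67 ± 0.11 (SD, n = 3) in expanded skin, a difference of -0.39 ± 0.09 (SE; limma, adjusted p = 0.0200). After TPA it was 8.59 ± 0.03 (SD, n = 2), lower than control by a difference of -0.48 ± 0.10 (SE; limma, adjusted p = 0.00793).

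P4ha3 read 8.07, 7.92 and 7.94 in control, 8.66, 8.54 and 8.77 in expanded skin, and 6.55 and 7.22 after TPA. The 3 groups did not overlap, with the expanded arrays at the top and the TPA arrays at the bottom. P4ha3 rose in expanded skin by 0.68 ± 0.16 (SE; 1.60-fold; limma, adjusted p = 0.0239) and was lower after TPA than in control by a difference of -1.09 ± 0.17 (SE; 2.13-fold; limma, adjusted p = 0.00241). Set against each other, expanded skin exceeded TPA by 1.77 (SE 0.17, 95% interval 1.38 to 2.17), or 3.42-fold, with a limma adjusted p of 0.00123. Ordered from the highest difference down, P4ha3 ranked 29 of 17097 genes in that comparison. On TPA replicate 1 its signal of 6.55 was close to that array's background limit of 6.47. The array reads P4ha3 through 1 probe set. The accession behind it is not a RefSeq transcript of the gene in the table used here, as is also so for the leading probe sets of Plod2, Lox, Loxl1 and Loxl2. Whether these probe sets read the gene they are named for was not tested, and for P4ha3 there is no other probe set to compare.

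For the prolyl 4-hydroxylase genes with a promoter entry in RefSeq, the letters upstream of the start could be set beside these profiles. Of the 9 listed genes 5 have such an entry (P4ha1, P4ha2, P4ha3, Plod1 and Plod3), and Plod2, Lox, Loxl1 and Loxl2 have none. The window shown runs from position -250 to position -51 relative to the annotated start, 5′ to 3′ on the strand of the gene, in build GRCm38.p6. It was searched on both strands for ACGTG and GCGTG, the core letters of hypoxia response elements, and for TGANTCA, the letters of an AP-1 site, the factor that TPA classically activates. Capitals mark each match. The 3 windows are shown because P4ha2 and P4ha3 moved in opposite directions in expanded skin and Plod1 followed P4ha2 in the order of its means; they lie at chr11:54100674-54100873 on the plus strand, chr7:100285270-100285469 on the plus strand and chr4:147936827-147937026 on the minus strand.
P4ha2: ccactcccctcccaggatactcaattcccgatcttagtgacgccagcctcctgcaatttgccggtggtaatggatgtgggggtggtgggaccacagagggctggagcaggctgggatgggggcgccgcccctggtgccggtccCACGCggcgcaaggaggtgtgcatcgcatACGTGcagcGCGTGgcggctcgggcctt
P4ha3: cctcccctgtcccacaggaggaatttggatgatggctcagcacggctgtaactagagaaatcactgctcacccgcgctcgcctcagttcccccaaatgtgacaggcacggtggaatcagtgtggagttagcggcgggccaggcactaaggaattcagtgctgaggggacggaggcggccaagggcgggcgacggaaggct
Plod1: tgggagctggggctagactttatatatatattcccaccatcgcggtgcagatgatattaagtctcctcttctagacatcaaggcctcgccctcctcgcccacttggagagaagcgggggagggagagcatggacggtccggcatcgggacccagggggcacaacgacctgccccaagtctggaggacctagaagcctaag

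The P4ha2 window held ACGTG at 78 bases before the start, GCGTG at 69, and the reverse complement of GCGTG at 107, counted at the first base of each match as printed. No match overlapped another. The windows of P4ha3 and Plod1 held none of the 3 motifs, which says only that these letters are not in these 200 bases. The Plod3 window, which overlaps the annotated gene Znhit1 and is not printed, held 3 matches to GCGTG. The window of the unmeasured P4ha1, which overlaps the annotated span of P4ha1 itself and is also not printed, held 2. Among 32851 promoter windows of the same length, 12.9% held ACGTG, 22.6% held GCGTG, 31.6% held either of these and 5.57% held TGANTCA. So 3 of the 5 windows held a hypoxia core. A match is a description of the letters and not a bound site.

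Plod2, the lysyl hydroxylase that acts on the telopeptides of collagen, showed the largest decrease of any member in both treated groups. Its signal was 8.84, 8.06 and 7.92 in control, 7.18, 7.06 and 7.19 in expanded skin, and 6.89 and 6.71 after TPA. The lowest control array was above the highest expanded array, and the lowest expanded array was above both TPA arrays. The difference from control was -1.13 ± 0.21 (SE; 2.19-fold lower) in expanded skin, with a limma adjusted p of 0.00956, and -1.47 ± 0.23 (SE; 2.78-fold lower) after TPA, with a limma adjusted p of 0.00238. From the lowest difference up, Plod2 ranked 163 of 17097 genes in expanded skin and 211 after TPA. Expanded skin against TPA differed by 0.35 ± 0.23 (SE), which did not pass the test (limma, adjusted p = 0.501), and its 95% interval ran from -0.19 to 0.88.

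The Plod2 result rests on 1 of the gene's 2 probe sets. The other was under the background limit on all 8 arrays, with differences from control of -0.29 in expanded skin (limma, adjusted p = 0.283) and -0.26 after TPA (limma, adjusted p = 0.317). Control replicate 1 was the highest array for Plod2. Without it the difference was -0.85 in expanded skin (limma, adjusted p = 0.00249) and -1.19 after TPA (limma, adjusted p = 0.000351).

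Plod1 and Plod3, lysyl hydroxylases that act on the helical part of collagen chains and, for Plod3, also transfer sugars to hydroxylysine, were lower after TPA. Plod1 read 9.44, 8.84 and 9.17 in control, 8.21, 8.43 and 8.85 in expanded skin, and 8.33 and 8.28 after TPA. The highest expanded array just reached the lowest control array, while both TPA arrays lay under every control array. The difference between TPA and control was -0.84 ± 0.21 (SE; 1.79-fold lower; limma, adjusted p = 0.0203), and that between expanded skin and control was -0.65 ± 0.18 (SE; 95% interval -1.07 to -0.23), which did not pass (limma, adjusted p = 0.0577). A second probe set of Plod1 was under the background limit on all 8 arrays, and 3 more are shared with Gmppa and were not used.

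Plod3 read 10.54, 10.18 and 10.07 in control, 9.69, 9.53 and 9.97 in expanded skin, and 9.72 and 9.40 after TPA. Neither treated group overlapped control. The difference after TPA was -0.70 ± 0.17 (SE; 1.63-fold lower; limma, adjusted p = 0.0221), and in expanded skin it was -0.53 ± 0.16 (SE; 95% interval -0.89 to -0.17), which did not pass (limma, adjusted p = 0.0660). Plod3 is read by 1 probe set. In expanded skin both genes lay near the threshold: with trended and robust eBayes the limma adjusted p was 0.0360 for Plod1 and 0.0380 for Plod3, with only genes of a mean above the median it was 0.0379 and 0.0433, and the adjusted p of Plod1 was also 0.0486 with quantile normalization and 0.0456 with genes above the limit on 2 arrays.

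The lysyl oxidases, which cross-link collagen and elastin outside the cell, did not pass the test in any comparison. Loxl1, the member known for its part in elastic fibre upkeep, read 6.92, 6.94 and 7.10 in control, 6.87, 6.98 and 7.05 in expanded skin, and 7.01 and 6.94 after TPA. The 3 groups overlapped, with a difference from control of -0.02 (95% interval -0.21 to 0.16) in expanded skin and -0.01 (95% interval -0.22 to 0.19) after TPA. Lox and Loxl2 were under the limit on every array, so no fold is given. Lox read 6.53 on control replicate 1, whose limit was 6.55, and between 5.34 and 5.59 on the other 7 arrays. Loxl2 read between 4.85 and 5.31 over all 8 arrays.

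Counted over the family, 1 of 8 measured members was higher (P4ha3) and 2 were lower (P4ha2 and Plod2) in expanded skin than in control at an adjusted p under 0.05. Over all genes 11.5% were called in that comparison, 5.69% higher and 5.78% lower. The arrays of expanded skin and control did not overlap for 4 of the 8 members, beside 30.0% of all genes. The median difference of the 8 was -0.40, against 0.01 for all genes, and it was -0.22 once signals under the background limit were raised to it. Under an unadjusted p of 0.05 lay 5 members, Plod1 and Plod3 being the additional pair, beside 4056 of all 17097 genes.

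After TPA, 5 of 8 members were lower than control (P4ha2, P4ha3, Plod1, Plod2 and Plod3) and 0 were higher. Over all genes 20.8% were called, with 10.6% of genes lower and 10.2% higher. For 7 of the 8 members the TPA arrays lay under every control array, with Loxl1 as the exception. The groups did not overlap for 45.8% of all genes, and 25.4% lay lower after TPA. Of the 7, Lox and Loxl2 were under the background limit on every array, which leaves 5 of the 6 members above it. The median difference was -0.59, against -0.03 for all genes. Loxl2 also lay under an unadjusted p of 0.05, which made 6 members, but it was under the background limit on every array. Of all 17097 genes, 5412 lay under that unadjusted threshold. Both comparisons use the same 3 control arrays, so their likeness is not counted as support for either.

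Expanded skin and TPA differed for 1 of 8 members, P4ha3, which was higher in expanded skin, where 5.98% of all genes were called, with 3.16% of genes higher and 2.81% lower. The arrays did not overlap for 2 members, P4ha3 and Plod2, beside 35.7% of all genes. The differences of P4ha2 (0.09, 95% interval -0.13 to 0.30), Plod1 (0.19, 95% interval -0.28 to 0.66) and Plod3 (0.17, 95% interval -0.23 to 0.57) had intervals that held 0. The median over the 8 members was 0.14, against 0.03 for all genes.

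**Figure D2:**
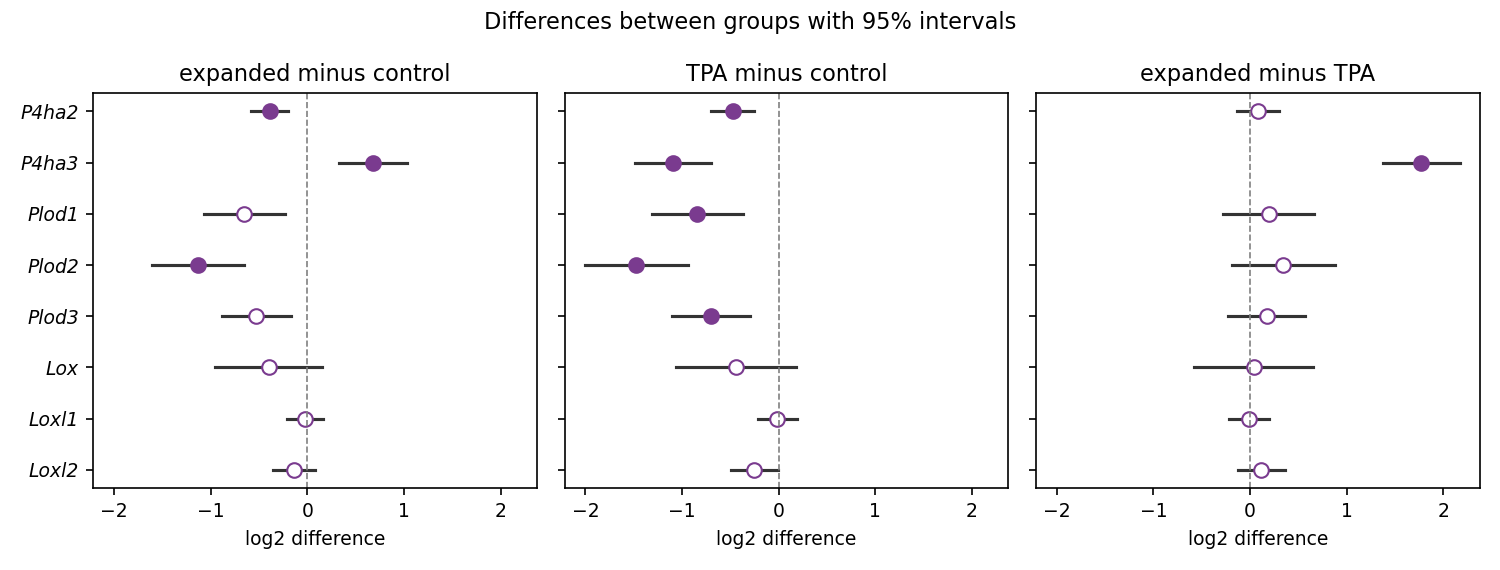
Each point is the log2 difference (x axis) of a member (y axis) for expanded minus control, TPA minus control and expanded minus TPA, with its 95% interval, and filled points have an adjusted p under 0.05. Plod2 lies farthest left in both comparisons with control, and P4ha3 changes side, from 0.68 in expanded skin to -1.09 after TPA.

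Leaving out each of the 8 arrays in turn separated the members by how far their calls rest on single arrays. Plod2 kept its call in all 8 fits against control in expanded skin (-1.30 to -0.85) and after TPA (-1.65 to -1.19). P4ha2 and P4ha3 kept theirs after TPA in all 8 fits, with P4ha3 between -1.43 and -0.76, and P4ha3 kept its difference between expanded skin and TPA (1.44 to 2.11).

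The calls of P4ha2 and P4ha3 in expanded skin were less firm. P4ha2 did not pass without control replicate 2, control replicate 3, expanded replicate 1 or expanded replicate 3, with differences from -0.46 to -0.33 over the 8 fits and limma adjusted p up to 0.0782. P4ha3 did not pass without any 1 of the control arrays, expanded replicate 1 or expanded replicate 3 (0.62 to 0.74, limma adjusted p up to 0.0828), nor with the replicate number as a block (limma, adjusted p = 0.0533). The direction of both genes was the same in all 8 fits.

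After TPA, Plod1 lost its call without control replicate 1, control replicate 3, or either TPA array, with limma adjusted p up to 0.0836. Plod3 lost it without control replicate 1 or TPA replicate 2, with limma adjusted p up to 0.132. In expanded skin Plod1 passed without control replicate 2 or expanded replicate 3, and Plod3 without expanded replicate 3. In counts of members, 1 to 3 passed in expanded skin, with 1 without control replicate 3 or expanded replicate 1, and 3 to 5 passed after TPA, with 3 without control replicate 1 or TPA replicate 2.

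**Figure D3:**
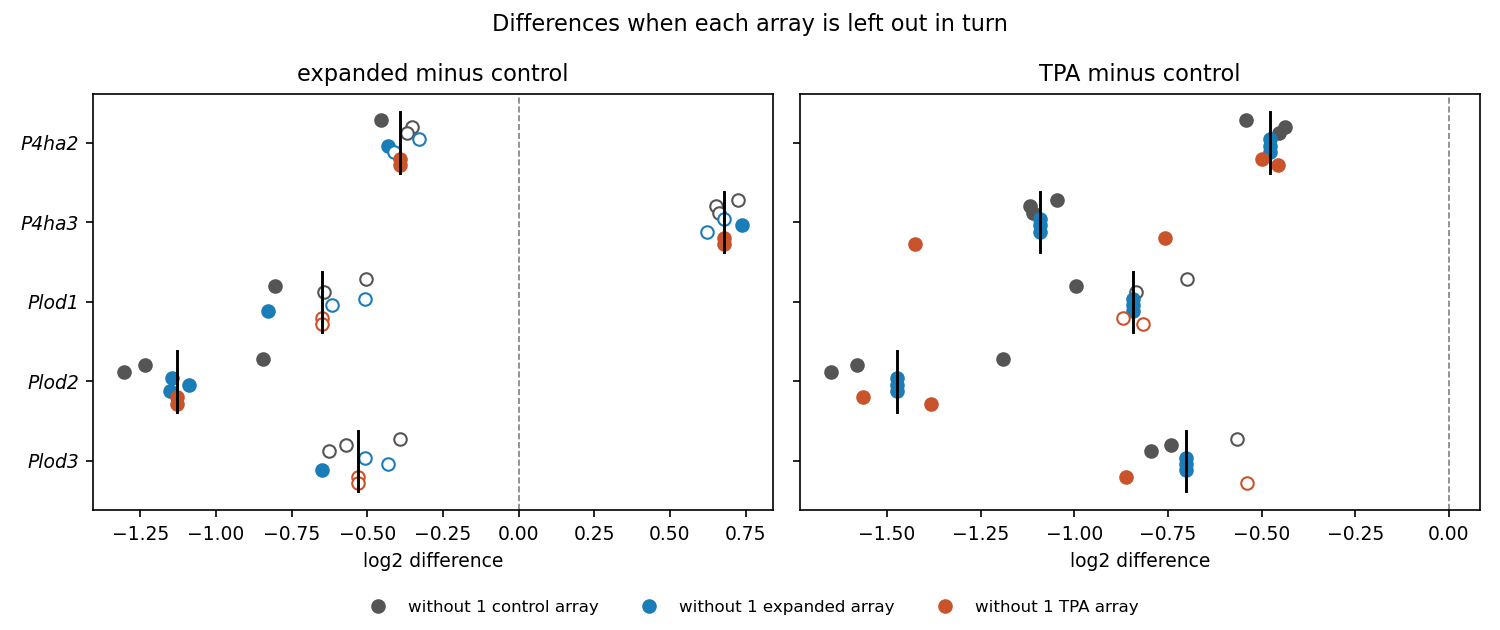
For the 5 members called in a comparison (y axis), the log2 difference from control (x axis) is drawn for the fit over all 8 arrays (black line) and for each fit without 1 array (points, coloured by the group of that array, filled where the adjusted p was under 0.05). All points of Plod2 are filled and lie left of 0, between -1.30 and -0.85 in expanded skin, while P4ha2 and P4ha3 have open points in expanded skin and none after TPA.

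Control replicate 1 was the highest control array for 6 of the 8 members, beside 31.6% of all genes. Among the controls, the summed signals of the endothelial, fibroblast, macrophage and suprabasal markers were also highest on this array. Single markers did not all follow these sums. Of the fibroblast markers Vim (10.57 against 8.57 and 8.58) and Col1a1 were highest there, while Dcn, Fbln1 and Col3a1 were lowest. Lyz2, Krt1 and Krt10 were highest there, while Cd207, Krt2 and Ivl were lowest. The sums of the melanocyte and hair follicle bulge markers were instead lowest on this array. The log2 of the summed signal of the 6 basal keratinocyte markers was also highest on it, at 15.48 against 15.44 and 15.42. For the smooth muscle and pericyte markers control replicate 1 lay between the other controls, at 10.15 against 10.21 and 10.10. The log2 of the summed signal of the 6 endothelial markers was 10.93 there, against 9.31 and 9.36 on the other controls, 9.43 to 9.95 in expanded skin and 9.12 to 9.24 after TPA. For the 9 fibroblast markers it was 12.02 against 11.65 and 11.68, with 11.44 to 11.75 in expanded skin and 10.73 to 11.02 after TPA, and Col1a2, Pdgfra, Lum and Dpt were under the limit on all 8 arrays. The fibroblast list was not even: after TPA Fbln1 was lower than control (-1.17) and Dcn was higher (1.69, limma adjusted p = 0.00117), while Vim differed by -2.01 without passing the test. For the 6 macrophage and Langerhans markers it was 9.61 against 8.59 and 9.30, with 8.61 to 8.66 in expanded skin and 8.62 to 8.63 after TPA. For the melanocyte markers it was 8.21 against 8.22 and 9.35, and for the hair follicle bulge markers 10.46 against 10.62 and 10.59.

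Other lists moved with the groups as a whole. The 5 measured smooth muscle and pericyte markers summed to 10.10 to 10.21 in control, 9.25 to 9.39 in expanded skin and 8.97 to 9.10 after TPA, with Acta2 lower than control in both (-1.44 and -1.94, both past the test) and with Myh11 and Des under the limit on all 8 arrays. The 6 suprabasal markers summed to 11.95 to 13.09 in control, 14.30 to 14.39 in expanded skin and 14.22 to 14.34 after TPA. Krt1, Krt10 and Krt2 were higher in both treated groups, whereas Ivl read lower (-0.33 in expanded skin and -0.48 after TPA, neither past the test), and Lor and Flg were under the limit on all 8 arrays. Fewer cells of a type and less RNA per cell cannot be told apart in these arrays, and the part of other cell types in the results for the collagen enzymes was not tested. Without control replicate 1, Plod1 differed from control by -0.51 in expanded skin and -0.70 after TPA, and Plod3 by -0.39 and -0.56.

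Among the partners of these enzymes in the endoplasmic reticulum and outside the cell, calls went both ways. Of 17 listed collagen chaperones and other modifying enzymes 14 were measured, and in expanded skin 1 was higher and 3 were lower, with a median of -0.08, where 11.5% of all genes were called. P4hb, protein disulfide isomerase and thus the beta subunit of prolyl 4-hydroxylase, fell by 0.34 ± 0.06 (SE) in expanded skin (limma, adjusted p = 0.00824) and by 0.63 ± 0.07 (SE) after TPA (limma, adjusted p = 0.000319). Its arrays read 11.96, 11.96 and 11.98 in control, 11.67, 11.62 and 11.59 in expanded skin, and 11.34 and 11.34 after TPA, so the 3 groups did not overlap. The difference between expanded skin and TPA also passed (0.29; limma, adjusted p = 0.0467).

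Serpinh1, the collagen chaperone also called HSP47, was lower in expanded skin than in control (-0.28 ± 0.06 SE; limma, adjusted p = 0.0267) and lower than after TPA (-0.47; limma, adjusted p = 0.00833). Colgalt1, which adds galactose to the hydroxylysine that lysyl hydroxylases make, was higher in expanded skin (0.44 ± 0.10 SE; limma, adjusted p = 0.0198) and after TPA (0.56 ± 0.11 SE; limma, adjusted p = 0.00598). Bmp1, the procollagen C-proteinase that also activates lysyl oxidase, was lower in expanded skin (-0.39; limma, adjusted p = 0.0428). Ppib, a prolyl isomerase of the chaperone complex, was lower after TPA (-0.36; limma, adjusted p = 0.00825), and P3h2, a prolyl 3-hydroxylase, was lower in expanded skin than after TPA (-0.54; limma, adjusted p = 0.0367). After TPA 1 of the 14 was higher and 2 were lower than control, with a median of -0.03, a count close to the 20.8% called over all genes.

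The next list holds genes known to respond to hypoxia. Of its 20 genes, all measured, 0 were higher and 10 were lower in expanded skin, with a median of -0.33, where 5.78% of all genes were lower. After TPA 0 were higher and 13 were lower, with a median of -0.55, where 10.6% of all genes were lower. Car9, a carbonic anhydrase at the cell surface, read 9.29, 9.29 and 9.09 in control and 7.50, 7.41 and 7.51 in expanded skin, a difference of -1.76 ± 0.08 (SE; limma, adjusted p = 2.43e-05). After TPA it was under the limit, so the decrease was at least 2.75 on the log2 scale. Ndrg1, a growth and stress response gene, differed by -1.51 in expanded skin and -1.37 after TPA, and Bnip3, which acts in mitophagy, by -1.16 and -1.97.

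Ero1a, the oxidase that recharges protein disulfide isomerase, differed from control by -1.12 in expanded skin and -1.33 after TPA, and Vegfa, a growth factor for blood vessels, by -1.23 and -1.31. All of the differences given for Car9, Ndrg1, Bnip3, Ero1a and Vegfa passed the test. Between expanded skin and TPA 4 of the 20 were higher in expanded skin and 0 were lower, with a median of 0.19. Over all genes 3.16% were higher and 2.81% lower in that comparison, with a median of 0.03.

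The other dioxygenases that use 2-oxoglutarate, 17 measured of 19, stood closer to all genes, with medians of 0.01 in expanded skin and 0.00 after TPA. In expanded skin 1 was higher and 2 were lower, where 11.5% of all genes were called, and after TPA 1 was higher and 3 were lower, where 20.8% were. Kdm5b, a histone demethylase, was lower in both (-0.58 and -0.74), Fto, an RNA demethylase, was higher in both (0.43 and 0.39), and Jmjd6 was lower after TPA (-0.50). Egln3, a prolyl hydroxylase that acts on hypoxia-inducible factors and stands in both lists, was lower in expanded skin (-0.40; limma, adjusted p = 0.0186).

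Among the substrates of these enzymes, few collagen chains were called in expanded skin, and more were called after TPA. Of the 14 collagen chains, all measured, 0 were higher and 1 was lower in expanded skin (Col18a1, -0.31), with a median of -0.23, and 3 were higher and 1 was lower after TPA, with a median of -0.05. Over all genes 11.5% and 20.8% were called in these comparisons, and 11 of the 14 chains had a negative difference in expanded skin. The chains higher after TPA were Col6a1 (1.29), Col16a1 (0.59) and Col7a1 (0.27), the last being the chain of the anchoring fibrils under basal keratinocytes, and Col6a2 was lower (-0.43). Of 14 elastic fibre genes 12 were measured, and 7 of these were under the limit in expanded skin and in control alike. Efemp1 was under the limit in control and higher by at least 1.46 in expanded skin and at least 2.62 after TPA, while Ltbp1, which holds latent TGF-beta in the matrix, differed by -0.70 and -1.76, all past the test. Among all 12, 1 was higher and 2 were lower in expanded skin, where 11.5% of all genes were called. After TPA 1 was higher and 3 were lower, where 20.8% of all genes were called. Ltbp2 is counted as lower in both though under the limit in every group.

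**Figure D4:**
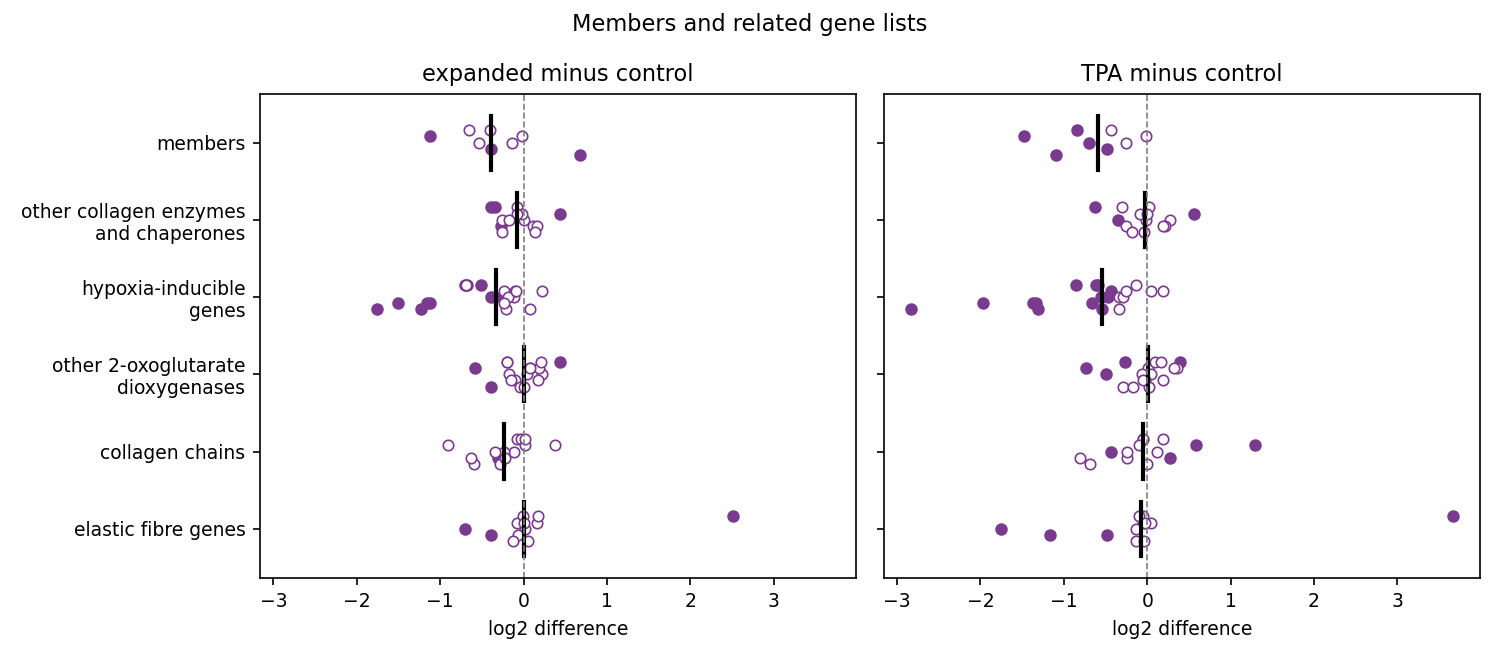
The log2 difference (x axis) of each measured gene is plotted by list (y axis), in expanded skin and after TPA against control, filled where the adjusted p was under 0.05, with a line at the list median and genes under the limit at their measured values. The medians of the members and of the hypoxia genes lie farthest left of 0 in both comparisons, at -0.40 and -0.33 in expanded skin. Those of the chaperones, collagen chains and elastic fibre genes also lie left of 0 in both, the last at only -0.00073 in expanded skin. The collagen chains have a median of -0.23 there, and with signals raised to the limit the members have -0.22.

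For the 5 members that passed in a comparison, the genes with the closest profile were found by the root mean square difference of centred log2 signals over the 8 arrays, among 9055 genes with a group mean above the median of all genes. Plod2, whose own signal deviated from its mean by 0.68, was closest to Cd276 (0.16), Rasa4 (0.18) and Nupr1 (0.20). P4ha3, with a deviation of 0.71, was closest to Cdhr1 (0.22), Rbp7 (0.36) and Gins1 (0.38). P4ha2, with a deviation of 0.22, was closest to Atp11b (0.046), Ykt6 (0.051) and Arhgap9 (0.056).

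Plod1 was closest to Rcn2 (0.15), Ddit4 (0.15) and Slc25a24 (0.16), and Plod3 to Cpt2 (0.11), Ube2c (0.12) and Myo10 (0.12). Among the 5 members themselves Plod1 and Plod3 were the closest pair, at 0.18. Ddit4 is also in the hypoxia list. With 8 arrays in 3 groups, a gene that steps between groups by like amounts is close by this measure, and the profiles say no more than that.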

How the data were processed

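The values are the authors' deposited log2 signals of an Affymetrix mouse array, made with RMA per the submitters' processing notes; the version is not given in the sources used here. RMA sets all arrays to 1 distribution, so differences are relative to the other genes. Per the labels' protocols, RNA of 300 sorted cells was amplified as cDNA, stopped after 25 cycles, and replicates are separate mice. Precision is limited by the number of arrays, and what the small input and the amplification add to the spread was not tested. Of 45141 probe sets 28898 carried 1 gene symbol in the platform's probe table, 551 several and 15692 none or no entry. Probe names were checked against the values with 782 pairs that share a gene (median correlation 0.91, or -0.02 with the partner shifted by 3 rows).

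The highest probe set of each gene by its mean gave 17097 genes. The 3 group means were fitted jointly over the 8 arrays by limma (version 3.58.1, run in R 4.3.3) with its lmFit and eBayes steps, which left 5 residual degrees of freedom and added 3.54 prior ones. The fit was tested on simulated data, and p-values were adjusted by Benjamini-Hochberg over all genes with a threshold of 0.05. A group under the background limit on every array gives a bound: the brighter group's mean minus that of the dimmer group after each dim signal is set to its array's limit. The limit assumes that the receptor genes are silent here. Named genes are every member, up to 6 called genes of each list by smallest p, the markers and label checks, and the 3 closest profiles of each member that was called and above the limit. The members and lists were chosen with earlier results of these data known. Promoter sequences are from RefSeq. Listed genes with no single-symbol probe set (P4ha1, Fkbp10, Fkbp14, Adamts2, Kdm6b, Tet1, Fbn1, Efemp2 and Cspg4) were not analysed here. Alternatives were quantile normalization, centring, 2 filters on dim genes, other probe sets, trended and robust eBayes, array weights, a fit of only the 2 groups compared, the replicate number as a block, a test against a fold of 1.5, other percentiles for the limit and leaving out each array.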

Additional observations from a re-analysis of the deposited data

How the results depend on the processing

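With 2 or 3 arrays a group, small differences and dim genes limit what can be shown. The call of Plod2 against control held in all settings with its leading probe set except the test against a fold of 1.5. That test left 0 members in expanded skin and 0 after TPA against control (1 and 2 at an unadjusted p under 0.05), and P4ha3 as the 1 member between expanded skin and TPA. It also brought the count over all genes to 173, 596 and 64. In expanded skin 5 members passed with trended and robust eBayes, and 5 when only genes with a mean above the median were tested. Plod1 after TPA lost its call with array weights. Loxl1 turned to 0.019 after TPA with centring, to 0.013 and 0.022 in expanded skin and after TPA with the mean of its probe sets, and to 0.049 and 0.057 with its other probe set. That other probe set of Loxl1 was under the limit on every array. Leaving out single arrays put Loxl1 between -0.064 and 0.035 in expanded skin, -0.047 and 0.046 after TPA and -0.052 and 0.038 between them, and Lox, which is under the limit on every array, between -0.0034 and 0.095 between them. With probe sets under the limit, Plod1 differed from control by 0.016 and 0.015, and Plod2 by -0.026 and Lox by -0.058 between expanded skin and TPA. The cause was not tested. Members under the limit were 1 at the 90th percentile of the receptor genes and 2 at the 99th. Without single arrays 1 to 3 members passed in expanded skin and 3 to 5 after TPA. Same-numbered control and expanded arrays did not deviate together (r from -0.18 to 0.03, 0 of 6 arrays closest to their own number). A replicate block gave 2, 4 and 1 members in expanded skin, after TPA and between them, and 1642, 2829 and 541 genes over all. With it, P4ha3 in expanded skin and Plod1 after TPA lost their calls (limma, adjusted p = 0.0533 for each), and Loxl1 turned to 0.037 after TPA. Between expanded skin and TPA the fit of only these 2 groups called 511 genes, and leaving out expanded replicate 3, TPA replicate 1 or expanded replicate 2 called 560, 568 or 636. In expanded skin 1261 genes were called without control replicate 2.

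List counts, in the order expanded skin against control, TPA against control and expanded skin against TPA, rest on few genes each. Against a fold of 1.5 they were 0, 0 and 0 for chaperones, 5, 5 and 0 for hypoxia genes, 0, 0 and 0 for dioxygenases and 0, 0 and 0 for collagen chains, and 1 and 0 for elastic fibre genes in the outer pair. Trended and robust eBayes gave 16 and 7 hypoxia genes in the outer pair and 3 collagen chains in expanded skin. Collagen chains in expanded skin were 2 with the mean of probe sets, array weights or the fit of 2 groups, and after TPA 2 with array weights, the fit of 2 groups or the replicate block. Dioxygenases after TPA were 2 with the mean of probe sets or the block, and between the treated groups 0 with centring, trended eBayes, array weights, 2 groups or the block. Hypoxia genes between the treated groups were 2 and chaperones 1 with 2 groups or the block, and chaperones in expanded skin 2 with the block. Leaving out each array gave 1 to 3, 3 to 3 and 0 to 2 chaperones (1 in expanded skin without any 1 control or expanded replicate 1, and 0 between the treated groups without TPA replicate 1). It gave 7 to 10, 12 to 14 and 2 to 4 hypoxia genes (2 without expanded replicate 3 or TPA replicate 1) and 2 to 3, 3 to 4 and 3 to 3 elastic fibre genes. Dioxygenases were 1 to 3, 2 to 4 and 0 to 1, with 1 in expanded skin without control replicates 2 or 3 or expanded replicates 1 or 2, and 2 after TPA without control replicates 2 or 3, expanded replicate 1 or TPA replicate 2. Between the treated groups only leaving out TPA replicate 2 kept a dioxygenase. Collagen chains were 0 to 2, 0 to 4 and 0 to 2, with 0 in expanded skin without any 1 control or expanded replicates 1 or 2, 0 after TPA without TPA replicate 2, and 0 between the treated groups without TPA replicate 1.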
